A study of Homo sapiens with 12 samples.

Results

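AHR knockout and Cas9 control cells of SUM149, a triple-negative line from an inflammatory breast cancer, were compared on 6 whole-transcript Affymetrix arrays, taken by their titles from the 12 arrays of the study. The knockout cells were SUM149 cells transduced with lentiCRISPR v2 carrying Cas9 and guides against the first exon of AHR (3 arrays). The controls were SUM149 cells transduced with Cas9 and no guide RNA (3 arrays). After transduction the cells were plated by serial dilution and selected with puromycin, and both groups grew in the same medium with serum, hydrocortisone and insulin. The labels name no added AHR ligand. The other 6 arrays held AHR KO and Cas9 control cells of MDA-MB-231, a triple-negative breast cancer line with mesenchymal features (3 arrays each), and enter only where the lines are compared. The arrays of a group are labelled biological replicates. Whether each array had its own culture, and how many clones made up a knockout group, was not stated. The p-values take their error from the spread of the 3 arrays, some of which may be technical. Loss of AHR cannot be told apart from differences that arose while the cells were transduced and grown out.

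The aryl hydrocarbon receptor (AHR) is a ligand-activated transcription factor that waits in the cytoplasm with chaperones. Once bound by an environmental ligand or a tryptophan metabolite it enters the nucleus, pairs with ARNT and binds response elements with the core GCGTG. Its classical targets are the cytochrome P450 genes CYP1A1 and CYP1B1 and the feedback gene TIPARP, and in breast cancer cells it has been studied for its part in migration and invasion.

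The knockout was aimed at 2 sites in AHR, shown here because every comparison below rests on them. Both target sequences were used according to the labels, which do not say how they were divided among cultures or clones. Each guide is given in lower case with the 3 bases next to it in the genome, its PAM, in capitals, as found in RefSeq sequence of build GRCh38.p14.
AHR guide 1: cctacgccagtcgcaagcggCGG
AHR guide 2: ccgagcgcgtcctcatcgcgGGG
Guide 1 lies at chr7:17299290-17299309 and guide 2 at chr7:17299339-17299358, both on the plus strand, which is the coding strand of AHR. They start 638 and 687 bases after the annotated start of the gene (chr7:17298652-17346147), in exon 1 according to the labels, and 49 bases apart. The guide 1 site also falls within the span of LOC101927609, which RefSeq annotates on the opposite strand at chr7:17134912-17299320, while the guide 2 site lies outside it.

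The response element core was looked for on both strands in promoter windows of 300 bases, 250 before and 50 after a RefSeq start site, and it is shown because it is the sequence to which AHR binds. Of the 8 genes named below, 4 had a window in the table (AHR, CYP1A1, TIPARP and GPC6), and 3 of these held the core. In the stretches below the core is in capitals, as GCGTG or, where it lies on the other strand, as CACGC.
CYP1A1: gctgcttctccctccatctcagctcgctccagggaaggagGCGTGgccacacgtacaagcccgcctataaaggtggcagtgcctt
TIPARP: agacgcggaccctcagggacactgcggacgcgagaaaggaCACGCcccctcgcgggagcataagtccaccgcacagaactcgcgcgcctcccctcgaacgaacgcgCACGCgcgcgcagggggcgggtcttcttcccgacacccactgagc
AHR: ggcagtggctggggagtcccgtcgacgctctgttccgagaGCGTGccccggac
The CYP1A1 stretch is the minus strand of chr15:74725541-74725625, with its core 57 bases before the start site. The TIPARP stretch is the plus strand of chr3:156674342-156674492, with cores 208 and 142 bases before the first of its 3 start sites. The windows of the other 2 TIPARP start sites and that of GPC6 held none. The AHR stretch is the plus strand of chr7:17298649-17298701, with the core 37 bases after the start site. For comparison, 36.5% of all 35116 windows held the core on either strand, and 40.6% of the 27305 genes with a window held it in any window. A match therefore describes the window and does not by itself mark a binding site. CYP1B1, HAS2, IL13RA2 and CDH1 had no entry in the table.

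Expression is given as the deposited log2 values, on which a difference of 1 is a 2-fold change. The 6 arrays had medians of 3.62 to 3.65. The lowest correlation over genes between arrays of a group was 0.994 for AHR KO and 0.995 for control, and the highest between the groups was 0.988. No 2 arrays were copies, since at least 31625 of the 31720 genes differed between any pair. Of the labelled cell type only the epithelial marker CDH1 could be read, and it lay at 9.82 to 10.44 on the SUM149 arrays against 5.31 to 5.83 on the MDA-MB-231 arrays. Changes were tested with limma on the 6 SUM149 arrays, with Benjamini-Hochberg adjustment across the 31720 genes and an adjusted p of 0.05 as the threshold. An exact permutation of 3 arrays against 3 cannot give a two-sided p below 0.1 for any single gene.

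The AHR transcript itself was lower in the knockout cells but still gave a clear signal. Its log2 level was 7.91, 7.93 and 7.84 on the AHR KO arrays, against 9.31, 9.48 and 9.26 on the control arrays. The 3 knockout arrays lay within 0.1 of each other and well under the lowest control array, with a gap of 1.33. The fold change was 2.74, with a 95% interval of 2.40 to 3.12 (log2 fold change -1.45, standard error 0.08, limma adjusted p = 0.000156). Small insertions or deletions in exon 1 need not remove the transcript, and the position of the probes on it is unknown here. The level therefore checks the labels only in part, and the submitters state that they examined the knockout by DNA sequencing and immunoblot.

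Among the classical targets, CYP1B1 fell most. This gene encodes a P450 enzyme that oxidises estradiol and polycyclic aromatic hydrocarbons. Its log2 level was 4.44, 4.24 and 4.65 in AHR KO cells, against 7.88, 7.90 and 7.96 in control cells, and the groups were 3.23 apart at their nearest arrays. That is an 11.1-fold fall (log2 fold change -3.47, standard error 0.11, adjusted p = 2.6e-05), the fifth largest of all 31720 genes in log2 terms. The control arrays differed by under 0.1, while the knockout arrays spread more widely (SD 0.21 in AHR KO and 0.04 in control cells, n = 3 each).

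CYP1A1, the P450 gene most often used to read AHR activity, was dim in both groups. Its log2 level was 2.64, 3.40 and 3.20 in AHR KO cells, against 4.03, 3.80 and 3.64 in control cells. Every knockout array was below every control array, but the nearest arrays were only 0.23 apart. The log2 fold change of -0.74 (95% interval -1.23 to -0.25) did not pass the adjusted test (adjusted p = 0.0611). The call turned on the settings, and the adjusted p was 0.0178 to 0.185 over 13 alternatives. CYP1A1 passed in 4 of them, at 0.0178 with a variance trend and robust moderation, 0.0195 with the spread estimated from all 12 arrays, 0.0421 without the dimmest 33.3% of genes and 0.0477 without AHR KO replicate 2.

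TIPARP encodes a mono-ADP-ribosyltransferase that AHR induces and that in turn dampens AHR. It stood at 8.14, 8.09 and 8.20 in AHR KO cells, against 8.93, 9.04 and 9.04 in control cells. The 2 groups were each tight and lay 0.73 apart at their nearest arrays. The fall was 1.81-fold (log2 fold change -0.86, standard error 0.07, adjusted p = 0.000623). All 3 targets thus had lower means in the knockout cells, and 2 of the 3 passed the test. Over all 31720 genes 6.77% were called lower, and the 3 targets were chosen with results of the study known.

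**Figure D1:**
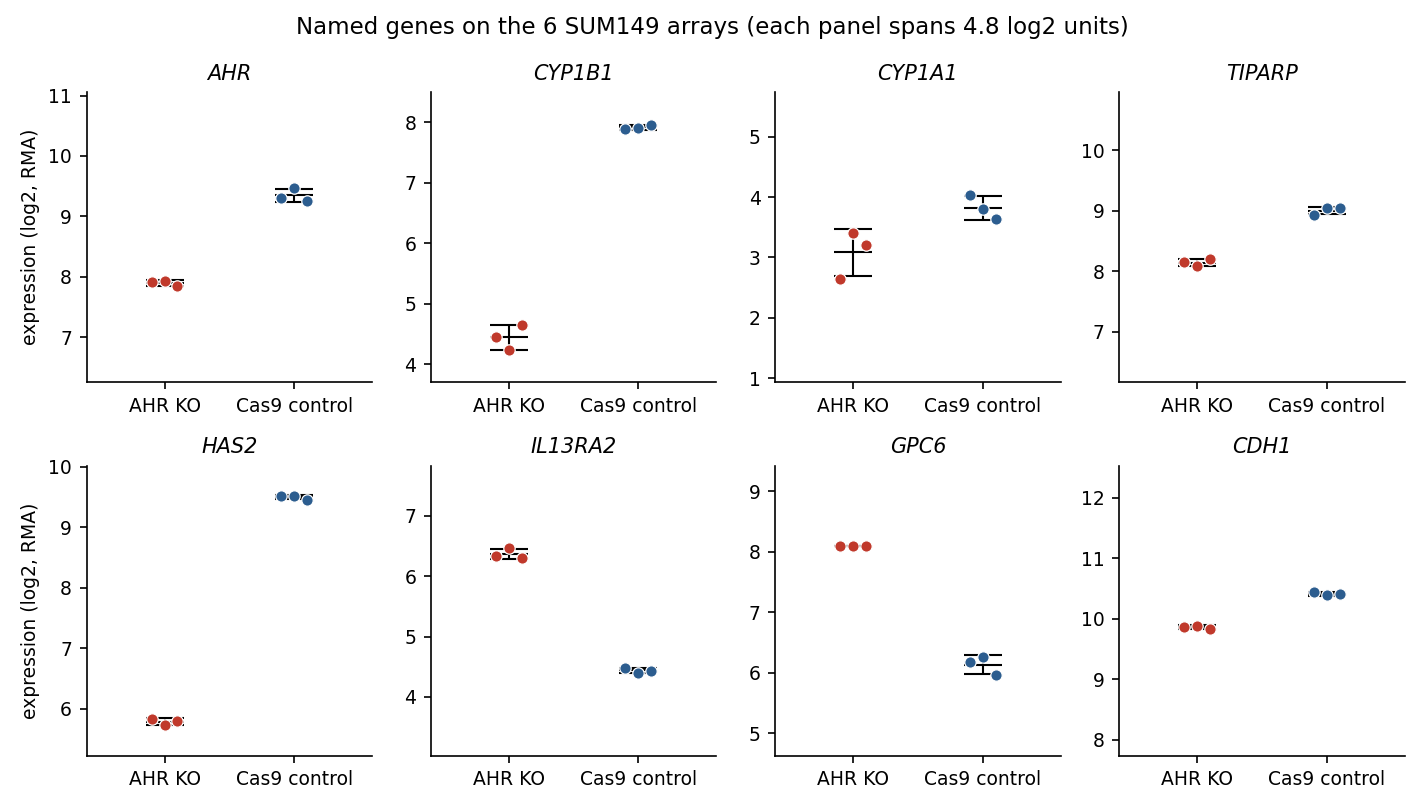
Expression (log2, RMA) of the 8 named genes on each of the 6 SUM149 arrays, AHR KO in red on the left and Cas9 control in blue on the right of each panel, with points for arrays and bars for mean and SD (n = 3). No gene has overlapping groups, and the nearest arrays are 0.23 apart for CYP1A1 and 3.62 apart for HAS2.

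HAS2, the synthase that extrudes hyaluronan through the plasma membrane, fell further than any of the classical targets. Its log2 level was 5.83, 5.72 and 5.80 in AHR KO cells, against 9.52, 9.52 and 9.46 in control cells. Both groups were tight, with SDs of 0.06 in AHR KO and 0.03 in control cells. The fall was 13.1-fold (95% interval 11.8 to 14.6, log2 fold change -3.71, adjusted p = 8.45e-06), the second largest of all genes.

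IL13RA2 and GPC6 rose by nearly the same factor. IL13RA2, a high-affinity receptor chain for interleukin 13 often described as a decoy, was at 6.33, 6.46 and 6.30 in AHR KO cells, against 4.49, 4.40 and 4.43 in control cells. It was 3.79-fold higher in the knockout cells (log2 fold change 1.92, standard error 0.07, adjusted p = 3.99e-05), and no arrays of the 2 groups came closer than 1.81. GPC6, a glypican that carries heparan sulfate on a lipid-anchored core protein, was at 8.09 on all 3 AHR KO arrays, against 6.17, 6.26 and 5.96 on the control arrays. The knockout SD of 0.000323 was far below the control SD of 0.15, and limma's moderated estimate of the spread stands in for both. GPC6 was 3.90-fold higher in the knockout cells (log2 fold change 1.96, standard error 0.09, adjusted p = 8.38e-05). By size of rise they ranked 35 and 30 among all genes.

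CDH1 encodes E-cadherin, the adhesion receptor of epithelial adherens junctions. It was at 9.87, 9.88 and 9.82 in AHR KO cells, against 10.44, 10.38 and 10.41 in control cells. The shift was small but larger than the replicate spread, as arrays within a group differed by at most 0.06 and the groups lay 0.50 apart. The fall was 1.47-fold (95% interval 1.33 to 1.63, log2 fold change -0.55, adjusted p = 0.0020), which left CDH1 bright in both groups.

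Of the 8 named genes, 5 were called lower and 2 higher, and all 8 had groups that did not overlap. These genes were chosen with results of the study known. Over all 31720 genes, 6.77% were called lower, 7.12% higher and 13.9% in either direction. Groups that did not overlap were more common than calls, with 15.1% of all genes separated in the lower direction and 16.7% in the higher.

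**Figure D2:**
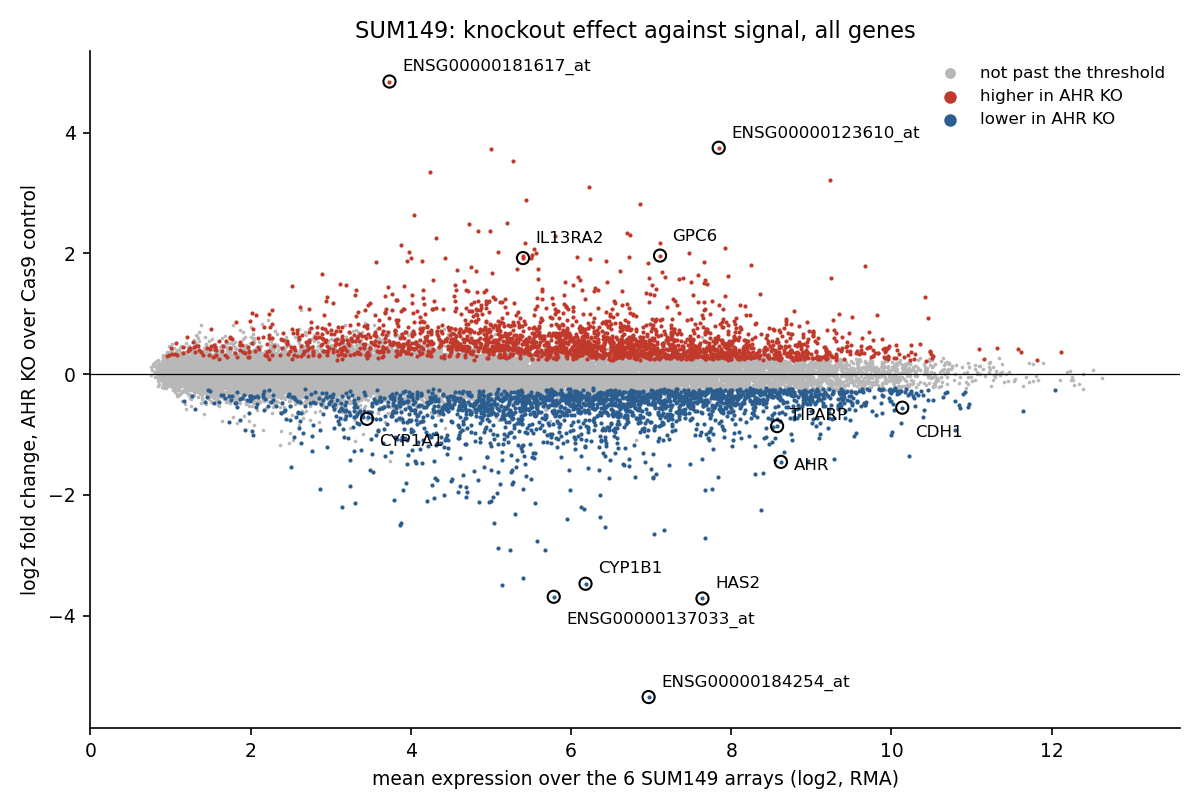
Log2 fold change (AHR KO over Cas9 control) of each of 31720 genes against its mean log2 expression on the 6 SUM149 arrays, with genes past the threshold in red (2257 higher) and blue (2146 lower) and the others in grey. Circles mark the 8 named genes and the 2 largest falls and rises among genes without a symbol, and CYP1A1 sits among dim genes that did not pass.

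The largest fall and the 2 largest rises belong to genes that could be given only by their identifier. ENSG00000184254_at had log2 levels of 4.61, 4.24 and 4.03 in AHR KO cells, against 9.64, 9.63 and 9.66 in control cells. At 40.7-fold (95% interval 32.1 to 51.6, adjusted p = 1.35e-05) it had the largest fall of all genes. ENSG00000137033_at followed HAS2 in rank, at 3.48, 4.02 and 4.32 in AHR KO cells, against 7.66, 7.64 and 7.58 in control cells. It fell 12.9-fold (adjusted p = 0.0001455). For both, the knockout arrays varied more than the control arrays, with SDs of 0.29 and 0.42 in AHR KO cells against 0.02 and 0.04 in control cells.

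The largest rise was that of ENSG00000181617_at, at 6.08, 6.03 and 6.36 in AHR KO cells, against 1.46, 1.35 and 1.13 in control cells. The log2 fold change was 4.85 (adjusted p = 1.35e-05). The control values lie in the range of the dimmest 10% of genes, whose means over the 6 arrays were 0.75 to 1.51, and no detection calls were used here, so no fold is given against them. It was the 1 gene that lay in the dimmest 33.3% of genes on every control array and in the brightest 33.3% on every knockout array, and 0 genes made the opposite change. ENSG00000123610_at was at 9.76, 9.68 and 9.72 in AHR KO cells, against 6.04, 6.14 and 5.73 in control cells. It was 13.4-fold higher (adjusted p = 2.23e-05) and, unlike the first, had a signal well above the dimmest genes in both groups.

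Over the whole table, falls and rises were close to balanced in number and in size. The test called 2146 genes lower and 2257 higher. The median log2 fold change was -0.49 for the lower genes (quartiles -0.69 and -0.37) and 0.48 for the higher genes (quartiles 0.36 and 0.67), against 0.01 over all genes. Most of these changes were modest, as 63.7% of the lower and 66.6% of the higher genes changed by less than 1.5-fold. A change of at least 2-fold was seen in 249 lower and 217 higher genes, of at least 4-fold in 35 and 26, and of at least 8-fold in 6 and 7. CYP1B1, HAS2, ENSG00000184254_at and ENSG00000137033_at are thus 4 of the 6 largest falls, and both identifiers given for rises are among the 7 largest rises. TIPARP, at 1.81-fold (log2 fold change -0.86), lay beyond the quartile of -0.69 of the lower genes, and CDH1, at 1.47-fold, between their quartiles.

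The groups of every called gene were fully separated. The smallest gap between the nearest knockout and control arrays was 0.11 among lower and 0.10 among higher genes, and the median gap was 0.33 and 0.32. A gap of at least 1 log2 unit, so that every knockout array differed at least 2-fold from every control array, was found in 141 lower genes, AHR, CYP1B1 and HAS2 among them, and in 127 higher genes, IL13RA2 and GPC6 among them. A gap of at least 3 was found in 6 lower and 4 higher genes. A further 2643 genes with a lower and 3040 with a higher range in the knockout cells did not pass the adjusted test, CYP1A1 being one.

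Calls were concentrated in bright genes, where replicates agreed more closely. Genes were split into 10 equal bins by mean expression. In the dimmest bin, 0.221% were lower and 0.82% higher, with a median replicate SD of 0.145. In the fifth bin, which holds CYP1A1, 2.52% were lower and 3.28% higher, at a median SD of 0.164. In the brightest bin, which holds AHR, TIPARP and CDH1, these were 17.4% and 15.5%, at a median SD of 0.0474. The dimmest 33.3% of genes gave 75 lower and 115 higher calls, and the brightest 33.3% gave 1654 and 1670.

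**Figure D3:**
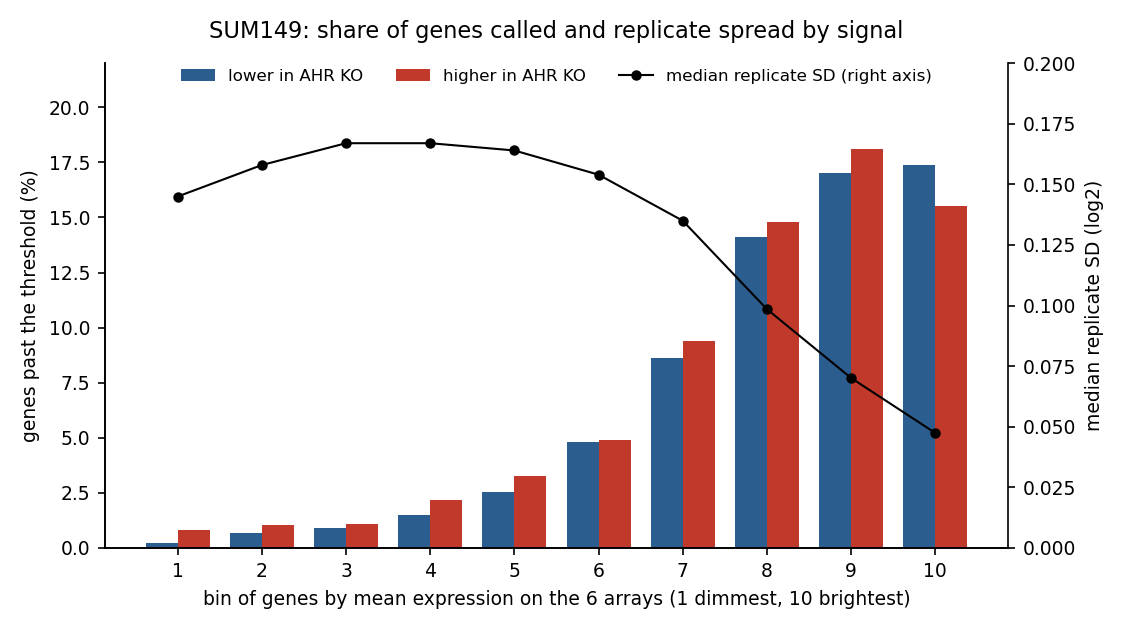
Percent of genes past the threshold in SUM149 (left axis, blue bars lower and red bars higher in AHR KO) in each of 10 equal bins of genes by mean log2 expression, with the median replicate SD of the bin (right axis, black line). Calls rise to 17.4% lower and 15.5% higher in the brightest bin, where the SD is 0.0474, and are under 1% each in the dimmest.

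Fewer genes were called in every fit that left out 1 array, while the largest changes stayed past the threshold. Such fits have fewer degrees of freedom, so a lower number of calls does not by itself point to a particular array. Of the lower genes, 1183 (55.1%) were called lower in each of the 6 fits that left out 1 array, and of the higher genes 1168 (51.8%). Among genes changed at least 2-fold, 242 of 249 lower and 212 of 217 higher genes were called in all 6 such fits, and among those changed at least 4-fold all 35 and all 26. AHR, CYP1B1, TIPARP, HAS2, IL13RA2, GPC6, CDH1 and the 4 identifiers kept their direction and stayed past the threshold of 0.05 in all 13 refits run for them. The 4 identifiers and the sets cut by fold change were picked from calls on these same arrays. The named genes were chosen with earlier results of these data known. Staying past the threshold is therefore no independent support for any of them. Without control replicate 1, 1346 genes were lower and 1407 higher, and the number of higher genes was 1424 without control replicate 3, 1469 without AHR KO replicate 1 and 1474 without control replicate 2.

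The second line was used to ask which of these changes also appeared in MDA-MB-231 and which differed. A model with 4 group means on all 12 arrays gave the knockout effect in each line and a test of their difference (SUM149 minus MDA-MB-231). The effects differed in 4173 genes, or 13.2% of all, and the effect was the larger one in SUM149 in 3272 of them. In that model 3.92% of all genes were called in MDA-MB-231, while 2609 genes were called lower and 2724 higher in SUM149. The named genes were chosen with earlier results of these data known, so their differences below are a description too.

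The 3 classical targets had lower means in the knockout cells of both lines. CYP1B1 had log2 fold changes of -3.47 in SUM149 and -3.04 in MDA-MB-231, where its level was 4.26, 3.91 and 3.98 in AHR KO cells against 7.05, 7.08 and 7.14 in control cells. The difference of -0.43 (95% interval -0.77 to -0.09) did not pass the adjusted test (adjusted p = 0.106), though it did without SUM149 AHR KO replicate 3 (-0.53, adjusted p = 0.0400). CYP1A1 had log2 fold changes of -0.74 in SUM149 and -0.93 in MDA-MB-231, with a difference of 0.19 and a wide interval of -0.40 to 0.79 (adjusted p = 0.733). For these 2 genes the data do not settle whether the lines differ.

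On the log2 scale TIPARP fell by 0.86 in SUM149 and by 0.51 in MDA-MB-231. The difference of -0.35 was close to the threshold (adjusted p = 0.0242). It no longer passed in 7 of the 12 fits that left out 1 array, with adjusted p values of 0.0509 to 0.0589. Those arrays were SUM149 AHR KO replicate 2, SUM149 control replicates 2 and 3, MDA-MB-231 AHR KO replicates 2 and 3, and MDA-MB-231 control replicates 1 and 2.

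AHR and HAS2 fell in both lines, and further in SUM149. For AHR the log2 fold change was -1.45 in SUM149 and -0.64 in MDA-MB-231, where its level was 10.02, 9.94 and 9.98 in AHR KO cells against 10.65, 10.57 and 10.64 in control cells. The difference was -0.81 (95% interval -1.03 to -0.60, adjusted p = 0.000264). For HAS2 the log2 fold change was -3.71 in SUM149 and -1.22 in MDA-MB-231, a difference of -2.50 (95% interval -2.72 to -2.28, adjusted p = 1.45e-07). HAS2 was at 6.48, 6.43 and 6.24 in AHR KO and 7.64, 7.55 and 7.60 in control cells of MDA-MB-231, so the knockout levels of the lines lay nearer to each other than the control levels did.

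IL13RA2 and GPC6 rose in both lines, each more in a different one. IL13RA2 rose by 1.92 on the log2 scale in SUM149 and by 2.49 in MDA-MB-231, a difference of -0.57 (95% interval -0.79 to -0.34, adjusted p = 0.00349). GPC6 rose by 1.96 in SUM149 and by 0.98 in MDA-MB-231, a difference of 0.98 (95% interval 0.74 to 1.23, adjusted p = 0.000188).

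CDH1 went in opposite directions. It fell by 0.55 on the log2 scale in SUM149, whereas in MDA-MB-231 it was 0.44 higher in the knockout cells (5.83, 5.83 and 5.64 in AHR KO against 5.32, 5.31 and 5.35 in control cells, adjusted p = 0.00279). The difference of -0.996 (95% interval -1.19 to -0.80) passed the test (adjusted p = 3.66e-05). The 2 changes took place at very different levels, since the SUM149 arrays had CDH1 near 10 and the MDA-MB-231 arrays near 5.

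**Figure D4:**
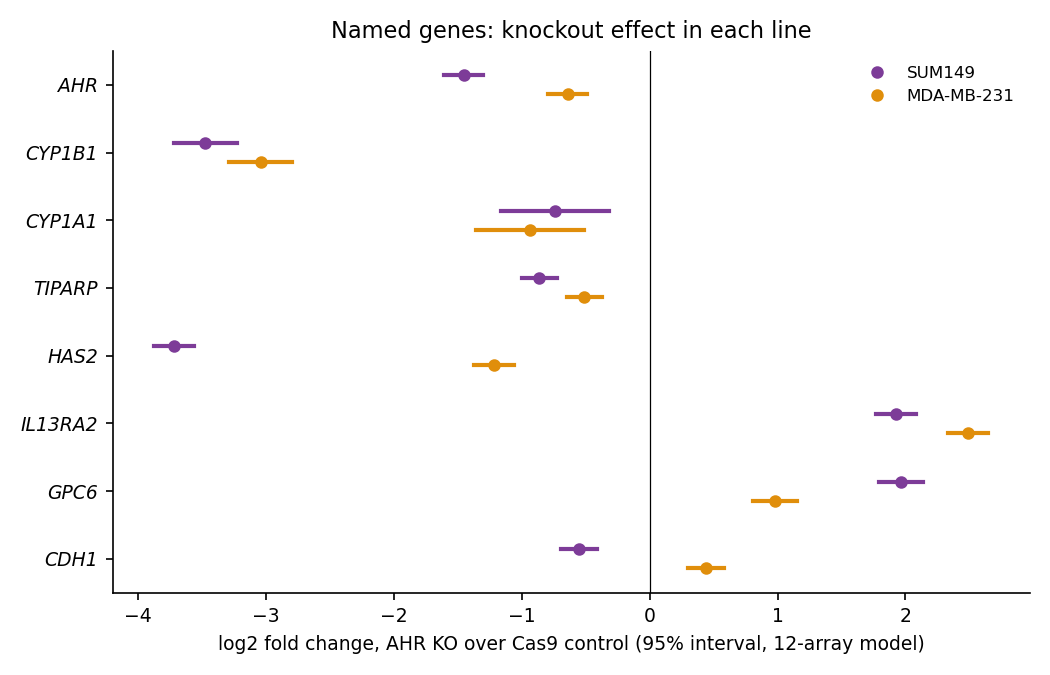
Knockout effect (log2 fold change, AHR KO over Cas9 control) of the 8 named genes in SUM149 (purple, upper) and MDA-MB-231 (orange, lower), with 95% intervals from the 12-array model. The effects differ past the threshold for all but CYP1B1 and CYP1A1, and for CDH1 they have opposite signs.

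The 4 genes given by identifier showed no change past the threshold in MDA-MB-231. Their log2 fold changes there were -0.35 for ENSG00000184254_at (adjusted p = 0.323), -0.15 for ENSG00000137033_at (0.731), -0.02 for ENSG00000181617_at (0.966) and -0.17 for ENSG00000123610_at (0.529). The differences between the lines were -4.99, -3.54, 4.86 and 3.92 in the same order. They are given as a description, since the 4 genes were picked for their change in SUM149, which the difference contains. In MDA-MB-231 cells ENSG00000184254_at lay at 3.95 to 4.33 in AHR KO and 4.22 to 4.77 in control cells, close to its level in SUM149 knockout cells. From those control levels a log2 fold change of -5.35, as in SUM149, would end below the lowest values of the MDA-MB-231 arrays (0.33 to 0.54). A fall of that size could not have been seen there. ENSG00000137033_at was dim on all MDA-MB-231 arrays, at 1.61 to 1.67 in AHR KO and 1.74 to 1.81 in control cells, where a fall like that in SUM149 could not have been seen. ENSG00000123610_at lay at 2.36 to 2.72 in AHR KO and 2.63 to 2.83 in control cells of MDA-MB-231, below its level in either SUM149 group. ENSG00000181617_at lay at 1.10 to 1.33 in AHR KO and 1.16 to 1.38 in control cells of MDA-MB-231, close to its level in SUM149 control cells.

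Across all genes the 2 lines showed almost no shared order of effects. The correlation of the log2 fold changes over 31720 genes was 0.00 by Pearson and -0.03 by Spearman, as a description only, since genes are not independent replicates. Most of these genes changed little, with a median absolute log2 fold change of 0.133 in SUM149 against a median standard error of 0.099. Noise of that size weakens such a correlation. Of the genes lower in SUM149, 49.7% also had a lower mean in the MDA-MB-231 knockout cells, against 49.6% of all genes. Of the genes higher in SUM149, 47.2% had a higher mean there, against 50.4% of all genes. Their median log2 fold changes in MDA-MB-231 were 0.00 for the lower and -0.01 for the higher genes. CYP1B1, HAS2, IL13RA2 and GPC6, which moved the same way in both lines, were chosen with earlier results known and do not speak for the genes called in SUM149 as a whole.

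Genes called in both lines were a small part. Of the 2146 genes lower in SUM149, 168 (7.83%) were called lower and 102 (4.75%) higher in MDA-MB-231. Of the 2257 genes higher in SUM149, 85 (3.77%) were called higher and 157 (6.96%) lower. Over all genes, 2.19% were called lower and 1.73% higher in MDA-MB-231, but calls in both lines favour bright genes. Within the brightest 33.3% of genes, 8.34% of the genes lower in SUM149 were also lower and 5.14% were higher in MDA-MB-231, against 4.55% lower and 3.47% higher among all 10573 genes that bright. For the genes higher in SUM149 the shares were 4.25% higher and 7.78% lower.

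The largest changes in SUM149 were read in the same way. Of the 35 genes that fell at least 4-fold in SUM149, 27 had a lower mean in the MDA-MB-231 knockout cells, 12 were called lower there and 1 higher, and CYP1B1 alone fell at least 4-fold in both lines. Of the 26 genes that rose at least 4-fold in SUM149, 12 had a higher mean in the MDA-MB-231 knockout cells, 3 were called higher there and 4 lower. The change in MDA-MB-231 was under 1.5-fold for 24 of the 35 and 21 of the 26. The effects differed between the lines for 32 of the 35 and for all 26, against 67.0% of all lower and 66.9% of all higher genes in SUM149 and 13.2% of all genes. Nothing is read from these shares, because the genes were chosen by their SUM149 effect, which is part of the difference.

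**Figure D5:**
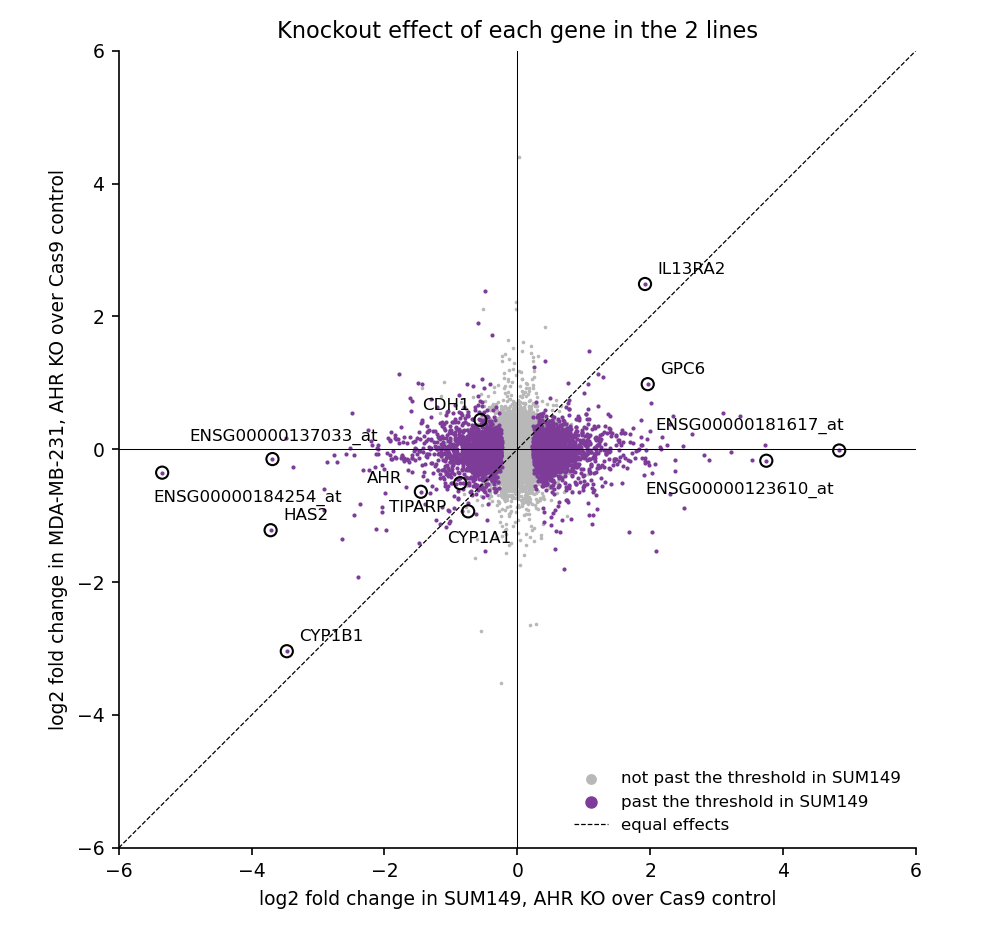
Log2 fold change (AHR KO over Cas9 control) of each of 31720 genes in SUM149 (horizontal axis) and MDA-MB-231 (vertical axis), with genes past the threshold in SUM149 in purple, the others in grey and equal effects on the dashed line. CYP1B1 and IL13RA2 lie near that line, HAS2 and GPC6 on the SUM149 side of it, and the 4 identifiers along the horizontal axis.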

How the data were processed

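RNA of AHR KO and Cas9 control SUM149 cells, and of the same groups of MDA-MB-231 (3 arrays each), was biotin-labelled and hybridised by the authors, who deposited log2 expression values for 31720 rows named by Ensembl gene ID. According to the submitters' processing notes these were made with RMA from affy 1.48.0 in R 3.2.3. RMA corrects background, quantile-normalizes arrays and summarises the probes of a gene, so it would hide a common shift of most genes. For the probe set definition and the build, the sources used here give nothing, and 0 columns were left without a sample.

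The values were used as deposited, with no filter. Group means were compared on the 6 SUM149 arrays with limma 3.58.1 (lmFit, eBayes) in R 4.3.3, with Benjamini-Hochberg adjustment over all genes and a threshold of 0.05. The difference between the lines was a contrast in a model of 4 group means on 12 arrays. Intervals are at 95%. Precision is limited by the number of arrays. The fits were also run on simulated arrays with known changes and independent noise, which gives no error rate for the real arrays. Tables and plots were made with Python 3.11.15, pandas 2.3.3 and matplotlib 3.10.9.

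The 8 named genes, the lists and the tests were chosen with earlier results of these data known. The rule named those 8, whose IDs came with their symbols, and further genes by size or by list if they could be named. The reference table (RefSeq, GRCh38.p14, 59792 genes) named 0 IDs, so 2 IDs with the largest falls and 2 with the largest rises, all with separated groups, stand for the rest. The gene lists, the markers of other cell types and the share of called genes with a response element core were not run. Guides came from the labels, and promoters from RefSeq. The alternatives were another variance model, centring, a second quantile normalization, a filter on dim genes, stricter thresholds, the replicate number as a block, and leaving out each array.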

Additional observations from a re-analysis of the deposited data

Results flagged for a closer look

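The knockout effect differed between SUM149 and MDA-MB-231 in 4173 genes by limma's interaction contrast on 12 arrays (adjusted p of 0.05 or less), and the text above describes 10 of them. The differences (SUM149 minus MDA-MB-231, log2) were -0.81 for AHR, -0.35 for TIPARP, -2.50 for HAS2, -0.57 for IL13RA2, 0.98 for GPC6 and -0.996 for CDH1. That of TIPARP did not pass in 7 of the 12 fits that left out 1 array. For the genes given by identifier, which were picked for their change in SUM149, they were -4.99 for ENSG00000184254_at, -3.54 for ENSG00000137033_at, 4.86 for ENSG00000181617_at and 3.92 for ENSG00000123610_at. The named genes were chosen with earlier results of these data known. CDH1 was the 1 named gene with opposite signs in the lines, with all 3 knockout arrays below all 3 control arrays in SUM149 and above them in MDA-MB-231. The lines were also grown in different media, which cannot be told apart from the line itself.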

How the results depend on the processing

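There were 15 alternatives for the SUM149 counts and 19 for the difference between the lines. The stricter thresholds, the replicate block and some fits without 1 array moved a count by over 1.5 times. At an adjusted p of 0.01, 1047 genes were lower and 1017 higher in SUM149 AHR KO cells, and 2172 differed between the lines. With a fold change of at least 1.5 these were 778, 754 and 2052. Without 1 array, 1346 to 1548 genes were lower, 1407 to 1556 higher and 3372 to 3664 differed between the lines. The lower count moved by over 1.5 times without control replicate 1, the higher count when any 1 of the control replicates or AHR KO replicate 1 was left out, and the count of differences in none of these fits, which have fewer degrees of freedom by construction. The other settings gave counts within 1.5 times.

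With the replicate number as a replicate block, all 3 counts fell by over 1.5 times, as 1386 genes were lower, 1375 higher and 2774 differed between the lines, and 1331 of the lower and 1337 of the higher genes were those called without it. The numbers did not pair the arrays, as the deviations of same-numbered knockout and control arrays from their group means correlated at 0.0348, 0.0132 and 0.00167, and 3 of 6 arrays correlated best with their own number. TIPARP's difference between the lines did not pass with the replicate block (adjusted p = 0.0740).

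Of 156 pairs of a setting and 1 of the 12 genes given by symbol or identifier, 152 kept direction and side of the threshold, 0 reversed and 4, all of CYP1A1, passed where the main test did not. For the differences between the lines, 194 of 203 were kept, 8 for TIPARP no longer passed and 1 for CYP1B1 did. The share of genes higher in SUM149 with a higher mean in MDA-MB-231 knockout cells was 45.9% to 49.8% over 13 settings, and that of lower genes with a lower mean 47.4% to 51.3%. Dim genes had a wider replicate spread than the brightest genes, and few of them were called.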
